A study of Homo sapiens with 6 samples.

Results

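The 10 genes described here are a set around FOXO1 and glucose synthesis, of which insulin holds down some, not all, in the liver. They include the transcription factors FOXO1 and FOXO3, the coactivator PPARGC1A and the gluconeogenic enzymes PC, PCK1, PCK2, FBP1 and G6PC. The FOXO targets IGFBP1 and C10orf10 complete the set. All 10 were chosen by name, with earlier results of these data known, and were found among the 26389 genes of the count table. Shares of all tested genes are therefore given beside their counts as a description only. Poly(A)-selected RNA was sequenced from 6 samples of HepG2 cells, an established human line from a hepatocellular carcinoma, grown in medium with serum. In 3 libraries the cells had received a control short hairpin RNA plasmid (shCtrl), and in the other 3 a plasmid against TCTP (shTCTP), the translationally controlled tumour protein encoded by TPT1. A Lipofectamine reagent carried the plasmids in both groups. The labels name a harvest at 48 h for quantitative PCR, give no separate time for sequencing, and mention no insulin, glucagon, glucocorticoid or fasting step in either group. No label says that a group's libraries are separate cultures, so each p-value here refers to the spread among these samples alone, and that spread may be technical.

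Library totals ran from 25427614 to 30486409 reads assigned to genes, and knockdown library 3 was the shallowest. That library also had the lowest mean correlation with the others across genes (0.977, against 0.986 to 0.987). TPT1, the target of the hairpin, gave 2575, 2249 and 2290 CPM (read counts scaled to a common library size) in control and 2032, 1807 and 1559 CPM in knockdown libraries, and its difference did not pass over all genes (edgeR adjusted p = 0.396). All 12 hepatocyte marker genes looked at, ALB and AFP among them, were above 1 CPM in every library. Their summed level was 29238 to 32642 CPM in control and 22326 to 30314 CPM in knockdown libraries. Of 12 markers of blood, endothelial and stromal cells, 9 were analysed and all had reads, and their summed level was 10.1 to 12.2 CPM in control and 7.5 to 9.9 CPM in knockdown libraries. Of the 9, CD14 and CD68 exceeded 1 CPM in every library, while the T cell marker CD3E and the fibroblast marker LUM had at most 1 read. The part of these markers in the results was not tested.

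Gluconeogenesis makes glucose from lactate, amino acids and glycerol, and in the body it is mainly a task of hepatocytes during fasting. Its enzymes run partly against glycolysis: pyruvate carboxylase (PC) and phosphoenolpyruvate carboxykinase (PCK1 in the cytosol, PCK2 in mitochondria) bypass pyruvate kinase, FBP1 removes a phosphate from fructose bisphosphate, and G6PC frees glucose from glucose 6-phosphate. FOXO1 in the nucleus promotes transcription of G6PC, PCK1 and IGFBP1. Insulin activates the kinase AKT, which phosphorylates FOXO proteins and sends them to the cytoplasm, and these messages then decline. PPARGC1A, also known as PGC-1alpha, is a coactivator induced by fasting that works with FOXO1 and HNF4A. C10orf10, now called DEPP1, encodes a protein induced by FOXO factors and by progesterone in decidual cells. The location of FOXO protein and its phosphorylation were not measured here.

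Of the 10 genes, 2 fell and 0 rose after TCTP knockdown at the adjusted threshold of 0.05 (edgeR quasi-likelihood test), while of the 14197 genes tested 1.41% passed, 0.148% lower and 1.26% higher. The genes that fell were G6PC, the last step of glucose release, to 22.8% of the control level (95% confidence interval 11.5 to 44.9%), and C10orf10, to 57.0% (95% confidence interval 44.7 to 72.7%). G6PC reached the filter's minimum read level in all 3 control but only 2 knockdown libraries, and so was tested by virtue of the control group. With a filter of at least 1 CPM in 3 libraries, which removes G6PC, 1 of the 10 passed. PCK1 stood at 41.4% of control (95% confidence interval 25.7 to 66.9%) and IGFBP1 at 68.0% (95% confidence interval 54.1 to 85.5%), and neither passed over all genes. FOXO1 itself stood at 90.8% (95% confidence interval 63.7 to 129.5%) and did not pass. In 6 of the 10 genes, G6PC, PCK1, PCK2, IGFBP1, C10orf10 and PPARGC1A, the highest knockdown value in CPM was under the lowest control value, which was true of 7.30% of all tested genes. In the deposited FPKM, the groups of PCK2 and of PPARGC1A overlapped. In 0 of the 10 did the knockdown values all exceed the controls, against 9.83% of all tested genes. A negative log2 fold change was found for 9 of 10, against 50.4% of all tested genes, and the median was -0.46, against -0.002 over all tested genes. The signs of FOXO1 and PC turned under some of the other processing tried. At an unadjusted p under 0.05, 5 were lower and 0 higher by edgeR, where 4.27% of all tested genes were lower. At the adjusted threshold DESeq2 gave 4 lower and 0 higher, and limma voom 2 lower and 0 higher. Over all genes DESeq2 called 60 lower and 254 higher, and limma voom 16 lower and 148 higher, so the tools differ in how many genes they call. Without control library 2 or knockdown library 2 none of the 10 passed the edgeR test, without control library 1 only 1 did, and without knockdown library 3 the count was 3.

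**Figure D1:**
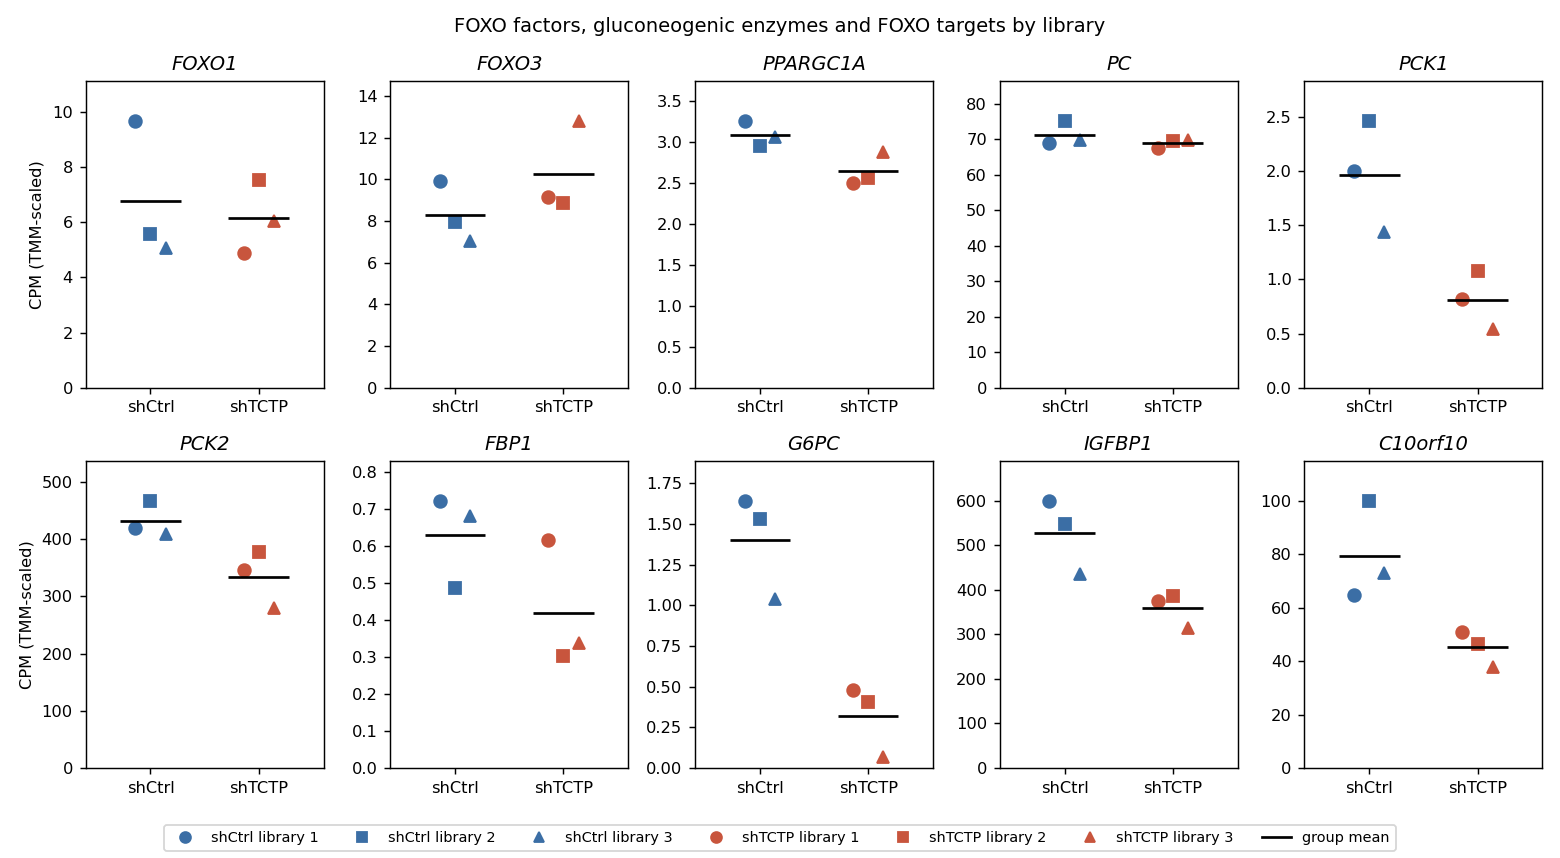
Level of each of the 10 genes in CPM on the vertical axis, starting at 0, for the 3 shCtrl (blue) and 3 shTCTP (red) libraries, with a marker shape for each library number and a black line at the group mean. For G6PC, PCK1, PCK2, IGFBP1, C10orf10 and PPARGC1A the red points all lie below the blue points, while for FOXO1, FOXO3, PC and FBP1 the groups overlap.

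The promoters of the genes that passed are shown because the forkhead motif is the textbook route by which FOXO factors act on this set. Each window runs from 250 bases before to 50 after the annotated start, 5′ to 3′ on the gene's strand, from RefSeq on GRCh38.p14 (G6PC as G6PC1, chr17:42900549-42900848, plus strand, and C10orf10 as DEPP1, chr10:44978760-44979059, minus strand). Capitals mark an exact match to a string named below, of the forkhead, insulin response or cyclic AMP response type. Other variants of these motifs were not searched for. Each motif was searched for on both strands, apart from the others, so that matches could overlap.
G6PC: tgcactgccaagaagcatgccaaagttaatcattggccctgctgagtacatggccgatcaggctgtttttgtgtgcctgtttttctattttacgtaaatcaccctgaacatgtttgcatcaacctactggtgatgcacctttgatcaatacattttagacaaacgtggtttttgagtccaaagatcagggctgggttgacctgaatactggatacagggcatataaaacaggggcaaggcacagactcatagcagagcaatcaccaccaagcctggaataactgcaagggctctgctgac
C10orf10: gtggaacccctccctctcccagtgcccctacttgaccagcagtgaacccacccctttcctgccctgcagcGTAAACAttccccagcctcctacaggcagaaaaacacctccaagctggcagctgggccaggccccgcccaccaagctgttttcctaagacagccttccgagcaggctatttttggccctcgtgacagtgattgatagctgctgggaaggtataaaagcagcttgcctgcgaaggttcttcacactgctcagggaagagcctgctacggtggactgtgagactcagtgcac
C10orf10 held GTAAACA, the reverse complement of TGTTTAC, with its first base at -180 from the start, and G6PC held none of the searched strings in its window. Near matches were left unmarked and are not listed in full. The G6PC window does hold TGTTTTT and TATTTTA, and the C10orf10 window TGTTTTC and TATTTTT. Each differs from a searched insulin response string in the last letter only. The G6PC window also holds TTACGTAA and TGTTTGC, each 1 letter from a searched string of the cyclic AMP response or forkhead type. The forkhead string TGTTTAC was present in 3.42% of 35116 promoter windows of the same length. Of the insulin response strings searched, TGTTTTG was present in 4.92% of windows and the string TATTTTG in 4.42%. Of the cyclic AMP response strings, TGACGTCA was present in 1.85% and the variant TTACGTCA in 0.416%. Windows were found for 8 of the 10 genes (14 windows, since FOXO3, PC and PPARGC1A have several starts), and the C10orf10 window was the only one of the 14 with a match. Any of the forkhead or insulin response strings was present in 11.8% of all windows and any cyclic AMP string in 2.24%, so 1 window of 14 is not above the background. PCK1 and IGFBP1 were not matched to a window. A match describes the letters only, and a window without one says nothing about binding.

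FOXO1 (ENSG00000150907.6, chromosome 13, 40469953 to 40666597 on GRCh38, minus strand) encodes the forkhead factor through which insulin restrains hepatic glucose output. It gave 9.67, 5.58 and 5.06 CPM in control and 4.90, 7.53 and 6.04 CPM in knockdown libraries. Control library 1 was the highest of all 6, and the other control libraries lay within the range of the knockdown libraries. The log2 fold change was -0.14 (SE 0.24, edgeR adjusted p = 0.886), and it was 0.21 without control library 1, 0.00 without knockdown library 1 and 0.01 on log2 FPKM with a pseudocount of 0.1, so that its sign was not settled. LINC00598, a noncoding RNA that overlaps FOXO1 exons on the same strand, held 1 to 14 reads in a library, against 141 to 295 for FOXO1. FOXO3 (ENSG00000118689.14, chromosome 6, 108559835 to 108684774, plus strand), a close relative of FOXO1 linked to stress resistance, gave 9.94, 7.94 and 7.03 CPM in control and 9.15, 8.88 and 12.8 CPM in knockdown libraries. Knockdown library 3 stood highest and the rest of the knockdown libraries fell within the control range. The FOXO3 log2 fold change, 0.31 (SE 0.19, edgeR adjusted p = 0.601), was 0.13 without knockdown library 3.

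FOXO3B, a near-identical processed pseudogene of FOXO3, can share reads with it, so the FOXO3 value is uncertain. Its 6 libraries held 10, 7 and 15 (control) and 17, 19 and 46 reads (knockdown), highest in knockdown library 3 as FOXO3 was. Summed with FOXO3B, FOXO3 had a log2 fold change of 0.37 (edgeR adjusted p = 0.505). The ratio of FOXO3 to FOXO1 FPKM (fragments scaled to gene length and library size) was 0.762, 1.06 and 1.03 in control and 1.38, 0.88 and 1.57 in knockdown libraries. These ranges overlapped (exact two-sided permutation p = 0.3, and 0.3 after adjustment over the 2 ratios examined).

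PPARGC1A (ENSG00000109819.8, chromosome 4, 23755041 to 23904089, minus strand) gave 3.25, 2.95 and 3.05 CPM in control and 2.50, 2.56 and 2.87 CPM in knockdown libraries. The groups did not overlap in CPM, yet the difference was small and did not pass (log2 fold change -0.22, SE 0.22, edgeR adjusted p = 0.770). In the deposited FPKM, which lack the scaling between libraries applied to CPM, knockdown library 3 had 0.36 and the control libraries 0.35, 0.30 and 0.30, so there the groups overlapped.

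Among the enzymes, PC (ENSG00000173599.13, chromosome 11, 66848233 to 66958376, minus strand), which makes oxaloacetate from pyruvate and also feeds the citric acid cycle, had the narrowest interval. It gave 68.9, 75.1 and 69.8 CPM in control and 67.5, 69.4 and 69.9 CPM in knockdown libraries, and the groups overlapped. The log2 fold change was -0.05 (95% confidence interval -0.31 to 0.21, edgeR adjusted p = 0.933), which bounds the knockdown level between 80.9 and 116% of control. LRFN4, which overlaps exons of PC on the opposite strand, held 440 to 579 reads (control) and 423 to 759 reads (knockdown), against 1944 to 2164 and 1969 to 2070 for PC.

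PCK1 (ENSG00000124253.10, chromosome 20, 57561080 to 57568112, plus strand), the cytosolic enzyme that turns oxaloacetate into phosphoenolpyruvate, was counted with 61, 71 and 40 reads (control) and 24, 32 and 16 reads (knockdown). In CPM this was 2.0, 2.46 and 1.44 against 0.822, 1.08 and 0.540, and every knockdown library lay below the lowest control library. The log2 fold change was -1.27 (SE 0.33, 95% confidence interval -1.96 to -0.58, edgeR adjusted p = 0.0719), and the gene ranked 247 by p among those tested. It passed without knockdown library 3 (log2 fold change -1.04, edgeR adjusted p = 0.0465), although that library was the lowest of all. It also passed with DESeq2 (adjusted p = 0.0325).

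PCK2 (ENSG00000100889.11, chromosome 14, 24094053 to 24110598, plus strand), the mitochondrial form, which is known as a target of ATF4 rather than of FOXO1, gave 419.6, 466 and 408 CPM in control and 346, 378 and 279 CPM in knockdown libraries. The groups did not overlap in CPM, and the log2 fold change, -0.37 (SE 0.15, edgeR adjusted p = 0.350), did not pass. In the deposited FPKM they overlapped narrowly, with 112.53 in knockdown library 2 and 112.37 in control library 3. Without knockdown library 3 it was -0.24. NRL, which overlaps exons of PCK2 on the opposite strand, held at most 265 reads in a library, where PCK2 held at least 8251. Per gene length PCK2 was far above PCK1 in every library: its FPKM was 284, 257 and 387 times that of PCK1 in control and 586, 469 and 695 times in knockdown libraries. The mean log2 ratio of PCK1 to PCK2 was 0.92 lower after knockdown (log2 difference -0.92), with no overlap. Its exact two-sided permutation p of 0.1 is the smallest that 3 libraries against 3 can give, and it was 0.2 after adjustment over the 2 ratios.

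FBP1 (ENSG00000165140.9, chromosome 9, 94603133 to 94640249, minus strand) was barely read in these cells, with 22, 14 and 19 reads in the control libraries and 18, 9 and 10 after knockdown. In CPM the values were 0.721, 0.486 and 0.682 against 0.617, 0.303 and 0.338, and knockdown library 1 lay within the control range. The log2 fold change of -0.59 did not pass (SE 0.43, edgeR adjusted p = 0.670), and its 95% confidence interval runs from 35.5 to 125% of the control level. PCAT7, a noncoding RNA antisense to FBP1 and overlapping its exons, held 51 to 73 reads in a library, more than FBP1 itself. The use of strand in counting is not given in the sources used here, so reads of such pairs, PC with LRFN4, PCK2 with NRL, FBP1 with PCAT7 and C10orf10 with RASSF4, may not have been told apart. Whether exons of both genes of a pair overlap was not checked.

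G6PC (ENSG00000131482.9, chromosome 17, 42900797 to 42913369, plus strand), the catalytic subunit of glucose-6-phosphatase whose promoter is printed above, was counted with 50, 44 and 29 reads (control) and 14, 12 and 2 reads (knockdown). Counting error alone (exact Poisson 95% interval) allows 19.4 to 41.6 reads for the lowest control library and 7.65 to 23.5 for the highest knockdown library. In CPM the values were 1.64, 1.53 and 1.04 in control and 0.480, 0.404 and 0.0675 in knockdown libraries, with knockdown library 3 far below the rest and no overlap. Its log2 fold change, -2.14 (SE 0.46, edgeR adjusted p = 0.0292), was the most negative of the 10. Without knockdown library 3 it was -1.65 and passed (edgeR adjusted p = 0.00362), while it did not pass when control library 1, control library 2 or knockdown library 2 was left out (edgeR adjusted p = 0.198, 0.133 and 0.0857). With FPKM and a pseudocount of 1, which weighs down genes of this level, the log2 difference was -0.38 and passed (limma adjusted p = 0.0305).

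Of the FOXO targets outside glucose synthesis, IGFBP1 (ENSG00000146678.9, chromosome 7, 45888357 to 45893668, plus strand), a secreted protein that binds insulin-like growth factors and rises in fasting, was abundant. It gave 599, 549 and 435 CPM in control and 375, 387 and 315 CPM in knockdown libraries. The control libraries spread over a wider range than the knockdown libraries, and the groups did not overlap. It stood at a log2 fold change of -0.56 (95% confidence interval -0.89 to -0.23, SE 0.16) and did not pass (edgeR adjusted p = 0.110), nor did it with any 1 library left out (edgeR adjusted p 0.1 to 0.433). DESeq2 called it (adjusted p = 0.0164).

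C10orf10 (ENSG00000165507.8, chromosome 10, 44970981 to 44978810, minus strand), whose promoter held the forkhead string, gave 64.7, 99.9 and 73.1 CPM in control and 51.1, 46.4 and 38.0 CPM in knockdown libraries. Control library 2 was the highest, and no knockdown library reached the lowest control library. The log2 fold change was -0.81 (SE 0.17, edgeR adjusted p = 0.0195), on 1126 to 2880 reads per library. With control library 2 left out it was -0.61 and did not pass (edgeR adjusted p = 0.163). It also did not pass without knockdown library 2 (-0.84, edgeR adjusted p = 0.0938), while it passed without knockdown library 3 (-0.69, edgeR adjusted p = 0.0065). RASSF4, which overlaps exons of C10orf10 on the opposite strand, held 1133 to 1228 reads (control) and 1215 to 1255 reads (knockdown) and did not pass (log2 fold change 0.05, edgeR adjusted p = 0.938).

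**Figure D2:**
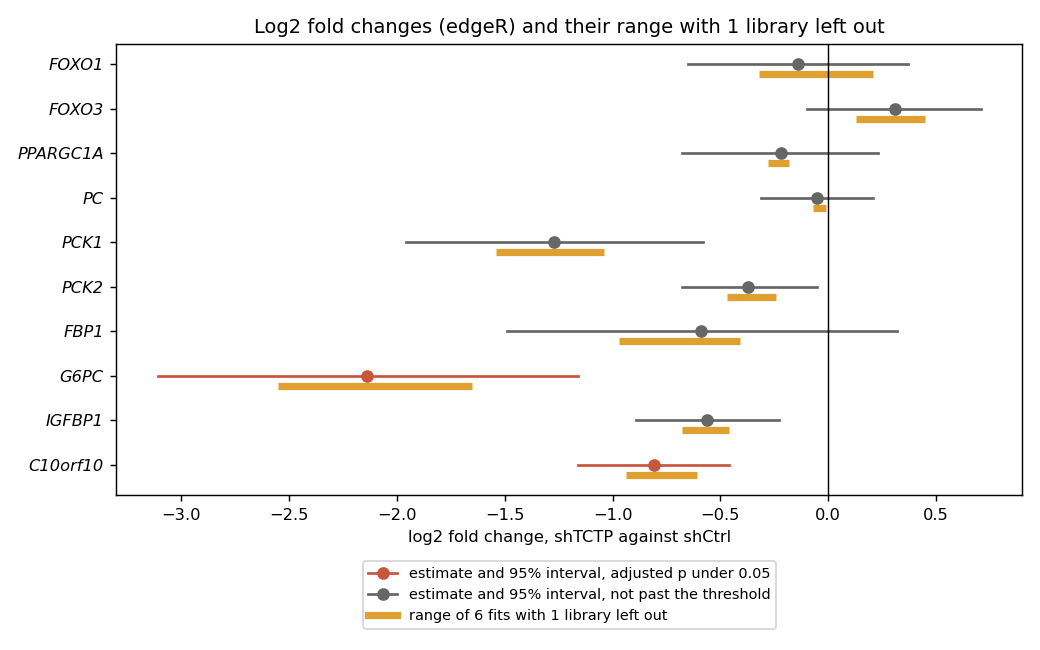
Log2 fold change of each gene, shTCTP against shCtrl, with its 95% confidence interval (red where the edgeR adjusted p is under 0.05) and, as an orange bar, the range of estimates when each of the 6 libraries is left out in turn. The bars of G6PC, PCK1, PCK2, FBP1, IGFBP1, C10orf10, PPARGC1A and PC stay below 0, that of FOXO3 above 0, and that of FOXO1 runs from -0.32 to 0.21.

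Knockdown library 3 had the lowest CPM of the 6 for G6PC, PCK1, PCK2, IGFBP1 and C10orf10 and the highest for FOXO3. The part of that library's depth and of the lower hepatocyte marker sum in these differences was not tested beyond the fits without it given above. Less RNA of a gene per cell and fewer cells expressing it cannot be told apart in bulk libraries. G6PC and FBP1 reached the minimum read level of the filter in all 3 control but only 2 knockdown libraries, and so were tested by virtue of the control group, while the other 8 genes reached it in all 6.

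Per gene length, the control levels of the 10 genes fell into separate tiers. IGFBP1 was highest at 296 ± 61.2 FPKM (SD, n = 3), above 98.3% of tested genes. PCK2 followed at 125 ± 11.0 FPKM (SD, n = 3; above 96.2%), then C10orf10 at 34.4 ± 7.57 (SD, n = 3) and PC at 13.7 ± 0.80 (SD, n = 3). No library of one of these 4 genes overlapped the next in the control group. FOXO1 at 1.10 ± 0.468 and FOXO3 at 0.997 ± 0.230 FPKM (SD, n = 3 each) did not differ beyond their spread. G6PC at 0.423 ± 0.112, PCK1 at 0.420 ± 0.118, FBP1 at 0.350 ± 0.0755 and PPARGC1A at 0.317 ± 0.0289 FPKM (SD, n = 3 each) lay close together within their spread, each below 1 FPKM and above 14.2 to 18.6% of tested genes. In the knockdown group G6PC stood last, at 0.0933 ± 0.0643 FPKM (SD, n = 3), below PCK1 at 0.183 ± 0.0513 (SD, n = 3), with every G6PC value at or under the lowest PCK1 value.

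**Figure D3:**
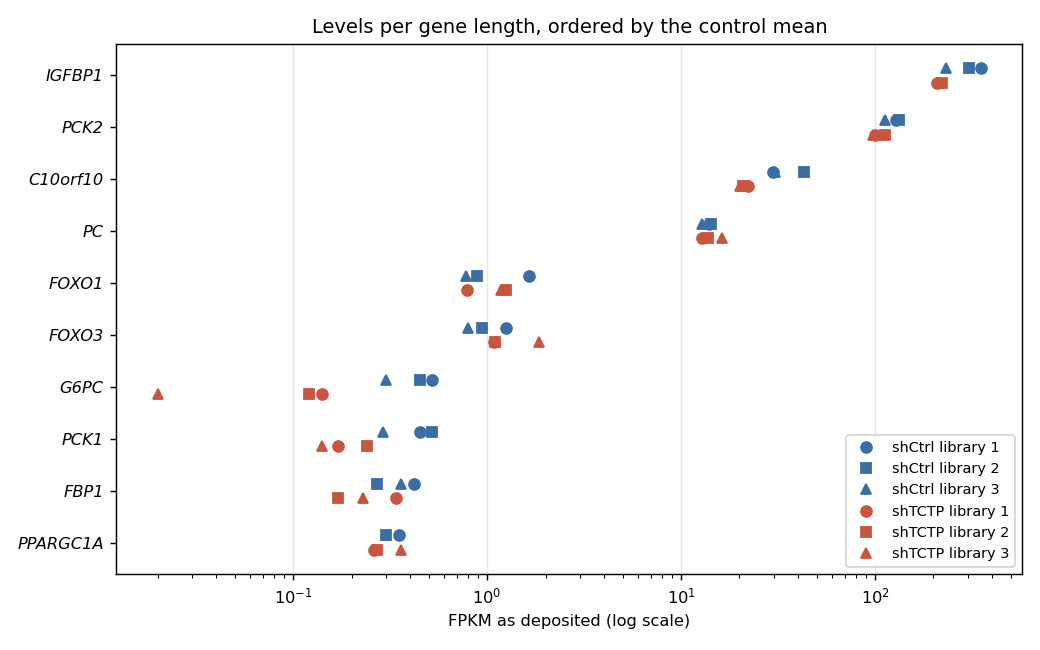
Deposited FPKM of each gene on a logarithmic horizontal axis, 3 shCtrl (blue) and 3 shTCTP (red) libraries, ordered by the control mean. IGFBP1, PCK2, C10orf10 and PC lie above 10 FPKM in every library, FOXO1 and FOXO3 near 1, and the remaining 4 genes below 1, with G6PC in knockdown library 3 at 0.02.

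The rest of the pathway was read from 6 lists of textbook genes, 140 in all, of which 120 were tested. Of these 2 rose and 1 fell, where 1.26% and 0.148% of all tested genes did, and 69 had a negative log2 fold change. Among 17 tested genes of glucose output and gluconeogenic substrates, 0 passed by edgeR, DESeq2 or limma voom. At an unadjusted edgeR p under 0.05, 4 were lower and 0 higher. Of all tested genes 11.1% were under that p in either direction, and 4.27% were lower. The list median was -0.20 and 13 of 17 were negative, against -0.002 and 50.4% over all tested genes. These shares are also the background for the lists that follow. SLC37A4, which carries glucose 6-phosphate to the G6PC active site in the endoplasmic reticulum, gave 54.8, 67.5 and 67.3 CPM in control and 45.7, 48.2 and 44.7 CPM in knockdown libraries. It lay lower in each knockdown library than in any control library, and its log2 fold change was -0.45 (SE 0.13, edgeR adjusted p = 0.128). The cytosolic malate dehydrogenase gene MDH1 stood at -0.41 (SE 0.16, edgeR adjusted p = 0.308). G6PC3, the widely expressed relative of G6PC, stood at -0.09 (SE 0.13).

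Among 22 tested transcriptional regulators of gluconeogenesis, 0 passed by edgeR (1 higher and 0 lower at an unadjusted p under 0.05), 1 was higher by DESeq2 and 0 passed by limma voom, with a median of 0.15. CRTC2, the cyclic AMP coactivator that switches on G6PC and PCK1 under glucagon, had a mean of 22.6 ± 2.13 CPM under the control hairpin and 33.2 ± 2.11 CPM under the TCTP hairpin (SD, n = 3 each). The groups did not overlap, and the difference did not pass by edgeR (log2 fold change 0.56, SE 0.14, edgeR adjusted p = 0.0574). The estimates of G6PC and PCK1 were of opposite sign, and any link of CRTC2 to them in these libraries was not tested. PPARGC1B, a relative of PPARGC1A, stood at -0.66 (SE 0.33, edgeR adjusted p = 0.478). HNF4A, the nuclear receptor on which hepatic G6PC and PCK1 expression depends, stood at -0.17 (SE 0.13).

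Of 25 tested genes of the FOXO family and its upstream control, such as the AKT and SGK kinases and the proteins of the 14-3-3 family that hold FOXO in the cytoplasm, 0 passed by edgeR, DESeq2 or limma voom. At an unadjusted edgeR p under 0.05, 1 was lower and 0 were higher, and the median was 0.00. FOXO4 had a mean of 7.98 ± 0.726 CPM under the control hairpin and 6.08 ± 1.0 CPM under the TCTP hairpin (n = 3 and SD in both; log2 fold change -0.39, edgeR adjusted p = 0.447). SFN, a 14-3-3 protein, stood at 0.27 (SE 0.13, edgeR adjusted p = 0.472).

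The other genes that FOXO factors are known to induce did not share 1 direction. Of 31 tested, 1 rose, 1 fell, 19 were negative and the median was -0.06. At an unadjusted edgeR p under 0.05, 6 were lower and 2 higher, where 4.27% of all tested genes were lower. GADD45A, a growth arrest gene that p53 and stress pathways also induce, rose from 51.0 ± 9.11 to 120 ± 6.75 CPM (means ± SD of 3 libraries). Its log2 fold change was 1.24 (edgeR adjusted p = 0.000114, SE 0.14), and it passed with any 1 library left out. MTTP, whose product transfers lipid to nascent apolipoprotein B particles, fell from 17.8 ± 1.43 to 11.3 ± 1.29 CPM (means ± SD of 3 libraries), a log2 fold change of -0.66 (edgeR adjusted p = 0.0434, SE 0.15). DESeq2 called it and limma voom did not. The call did not hold when any 1 control library, or knockdown library 2, was left out (edgeR adjusted p 0.102 to 0.216), and with the replicate number as a block no gene of the lists fell. IRS2, a FOXO target in liver and the adaptor of the insulin receptor, had at most 6 reads in a library, and PDK4 at most 2, so neither was tested.

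Of 15 tested genes that insulin induces in liver, 0 passed by edgeR (1 higher and 4 lower at an unadjusted p under 0.05), DESeq2 called 1 lower and limma voom 0, with 13 of 15 negative and a median of -0.18. SCD, a desaturase gene of fatty acid synthesis, stood at -0.40 (SE 0.15, edgeR adjusted p = 0.261). A negative estimate was found for 50.4% of all tested genes. Whether insulin signalling differed between the groups was not tested. Of 15 tested genes induced by cyclic AMP or glucocorticoids in liver, 1 rose and 0 fell by edgeR, DESeq2 and limma voom (3 higher and 2 lower at an unadjusted edgeR p under 0.05), with a median of 0.14. It was DUSP1, a phosphatase acting on MAP kinases that many stimuli induce, which rose from 39.8 ± 3.2 to 115 ± 3.11 CPM (means ± SD of 3 libraries). Its log2 fold change was 1.52 (edgeR adjusted p = 6.26e-06, SE 0.13), and it passed with any 1 library left out.

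**Figure D4:**
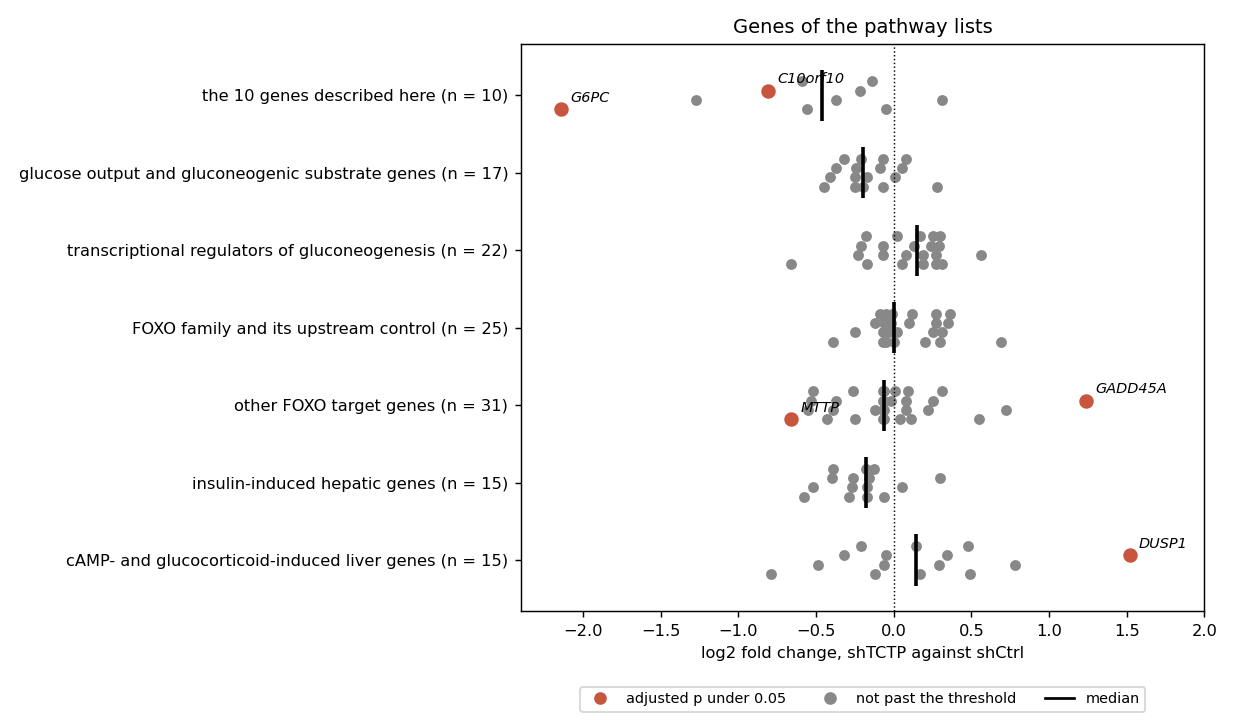
Log2 fold change of the tested genes, shTCTP against shCtrl, for the 10 genes described here and for 6 pathway lists, 1 point per gene, with the list median as a black line and genes past an adjusted p of 0.05 in red. The medians run from -0.46 for the 10 genes to 0.15 for the regulators of gluconeogenesis, and the red points are G6PC, C10orf10, MTTP, GADD45A and DUSP1.

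Over the 6 libraries, the genes most like FOXO1 among 8809 with a mean of at least 5 CPM were CPT1A (Pearson r of log2 CPM 0.982), which admits fatty acids to mitochondria, ZNF556 (0.971) and CREB3L2 (0.969). CPT1A gave 20.8, 13.2 and 11.4 CPM in control and 10.2, 15.8 and 13.2 CPM in knockdown libraries, highest in control library 1 as FOXO1 was. The genes most like C10orf10 were THYN1 (0.997), DNAJC14 (0.995) and TMEM140 (0.99), none of which passed the edgeR test. These likenesses rest on 6 points that share library depth and group, and they are the highest among many, so they are given as a description.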

How the data were processed

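Analysis began from the authors' table of read counts per gene and their deposited FPKM values (1 column per library, rounded to 2 decimals). The submitters' processing notes name GRCh38 and the tools bcl2fastq, TopHat2 and edgeR. The sources used here give no versions, counting tool, annotation or use of strand. Deposited counts of 6 libraries (25427614 to 30486409 reads) were tested with the edgeR 4.0.16 quasi-likelihood test in R 4.3.3, after filterByExpr and TMM scaling, with group as the only term and robust dispersion, on 14197 genes. Adjusted p-values are Benjamini-Hochberg over all tested genes, with a threshold of 0.05. CPM carry the TMM factors, FPKM do not. Standard errors were derived from the estimate and the F statistic. The script was tested on simulated data, where it recovered 32.8% of 1.5-fold, 70.8% of 2-fold and 100% of 4-fold changes. Of its calls there 7.09% were false. A gene that did not pass may therefore still differ by a fold of about 1.5 to 2, or by more where reads are few. The recovery rates were not split by read level, so they set no bound for such genes. PCK1 did not pass at 41.4% of the control level, and the confidence interval of FBP1 reached down to 35.5%. Gene positions and overlaps came from GENCODE release 29 by identifier, which is also on GRCh38, and promoters from RefSeq. An overlap with a gene's exons was taken from the whole span of the other gene, introns included. No 2 libraries of a group were alike within counting noise (chi-square 13.9 to 85.7 per degree of freedom).

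The members, the pathway lists and the 2 ratios were chosen with earlier results of these data known. All 10 members are named, and from each list the genes that passed (up to 4) or the 2 with the smallest p. One gene this rule names is not reported here. G6PC3, HNF4A, IRS2 and PDK4 were named besides, after their values were seen. TPT1 checks the labels. Likeness was ranked for FOXO1 and C10orf10. Alternatives were RLE and upper quartile scaling, 2 other filters, DESeq2 1.42.0, a block for the replicate number, limma 3.58.1 (voom, and log2 FPKM with pseudocounts of 1 and 0.1), no robust fitting, a loess correction for gene length (span 0.3), each library left out, and FOXO3 summed with FOXO3B. FOXO1B was not analysed here. Figures used matplotlib 3.10.9.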

Additional observations from a re-analysis of the deposited data

How the results depend on the processing

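The sign of all 10 genes' estimates held under the alternatives run, except FOXO1 (0.21 without control library 1, 0.01 on log2 FPKM with a pseudocount of 0.1) and PC (0.05 and 0.06 on log2 FPKM with pseudocounts of 1 and 0.1). With 1 library left out, 0 to 3 of the 10 passed, G6PC ranged from -2.55 to -1.65, C10orf10 from -0.94 to -0.61, PCK1 from -1.54 to -1.04, IGFBP1 from -0.68 to -0.46 and FOXO1 from -0.32 to 0.21, and those fits have fewer samples. C10orf10 missed the threshold on log2 FPKM (-0.67 and -0.69, pseudocounts of 1 and 0.1), where 1 of the 10, G6PC, passed. With at least 1 CPM in 3 libraries, a filter that removes G6PC and FBP1 from the test, 1 of the 10, C10orf10, passed. DESeq2 and no filter each gave 4 of the 10, adding PCK1 (-1.28 in both) and IGFBP1 (-0.56 and -0.57), and the length correction added PCK1 (-1.29).

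Over all genes 200 passed (179 higher, 21 lower), with 314 by DESeq2 (60 lower), 317 without a filter (71 lower), 46 lower with the length correction, and 7 and 8 lower on log2 FPKM. With 1 library left out the count was 79 (without control library 2) to 343 (without knockdown library 3), 76 to 300 higher and 3 to 43 lower. Of the list genes 3 passed, 5 by DESeq2, 6 without a filter, 6 with the length correction and 2 to 5 with 1 library left out. The cause of these shifts was not tested. With the replicate number as a block 130 genes passed, 111 of them higher, and no call among the 10 genes changed. The libraries share only a number: deviations of same-numbered libraries correlated at -0.232, 0.001 and -0.200, and no library matched its own number best. FBP1 and G6PC had the fewest reads of the 10.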
